A study of Homo sapiens with 16 samples.

Results

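The genes described here are 10 members of the NF-kappaB pathway and its inflammatory outputs: the transcription factor subunits NFKB1, NFKB2, REL and RELB, the feedback genes NFKBIA and TNFAIP3, the cytokines TNF and IL1B, and the chemokines CCL3 and CCL4. They were chosen by symbol, and all 10 were found among the 23230 gene symbols counted in every library. NF-kappaB factors are dimers that inhibitor proteins hold in the cytoplasm until a receptor signal leads to the inhibitor's degradation. The freed dimers enter the nucleus and raise the transcription of inflammatory genes and of their own inhibitors, so the pathway limits itself. In blood cells it is known for its part in lymphocyte survival and in the cytokine output of monocytes.

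Poly(A)-selected RNA was sequenced from 8 established human lines of leukemia, lymphoma or a lymphoma model. Each line gave 1 library with each of 2 peptides, for 16 libraries in all. Per the labels, Y518R binds DPY30, a core subunit of the complexes that methylate histone H3 at lysine 4, and 3R does not, so 3R served as the control in each line. The lines with an MLL fusion were MOLM13 and THP1 (both MLL-AF9), RS4-11 (MLL-AF4) and KOPN8 (MLL-ENL). The other lines were K562 (BCR-ABL leukemia), RAJI (Burkitt's lymphoma), JURKAT (a Myc-dependent T cell leukemia) and P493-6 (a Burkitt's lymphoma model). All lines were kept in the same medium with 2.5% fetal bovine serum, while peptide dose and exposure time were not given in the sources used here. With 1 library for each peptide in a line, the line was the replicate and p-values measure the spread between lines, part of which may be technical.

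Libraries held 19354300 to 43003124 gene counts, and RAJI had the shallowest pair. The share of reads assigned to no gene was 17.7% to 26.9% in 15 libraries and 44.7% in RAJI 3R, against 23.4% in RAJI Y518R. Marker genes followed the T cell label of JURKAT and the Burkitt labels of RAJI and P493-6. The labels of the other lines name a fusion and no lineage. The summed level of 6 myeloid markers was 663 and 697 CPM (counts scaled by TMM for library size) in MOLM13 and 1034 and 1106 in THP1, with 3R and Y518R in that order. The 5 B cell markers summed to 1014 to 2923 CPM in RS4-11, KOPN8, RAJI and P493-6. The 5 T cell markers reached 1662 CPM or more in JURKAT, and the 5 erythroid markers 6034 CPM or more in K562.

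The promoter sequences show which of these genes carry, close to a start site, an exact match to a consensus for NF-kappaB binding. RefSeq promoter windows on GRCh38.p14, from 250 bases before to 50 bases after each start, matched 8 of the 10 genes. The kappaB consensus GGGRNNYYCC, a motif of 10 letters, was searched on both strands, and a palindromic match counts on each. R is A or G, Y is C or T, and N is any letter.  The consensus had to match exactly. It occurred in 5 of the 8 genes (62.5%), namely NFKB1, NFKB2, REL, NFKBIA and TNFAIP3, against 13.3% of all 27305 genes with a promoter in the table. The windows of TNF, IL1B and CCL3 did not hold an exact match. Stretches that depart from the consensus by a letter, such as gggtttctcc in the TNF window, were not counted. The genes with no entry were RELB and CCL4. A match is a description of sequence, not evidence of binding. The 250 bases before the NFKBIA start (chr14:35404750-35404999, minus strand) are shown because NFKBIA encodes the inhibitor that closes the feedback loop. The exact match is in capitals and begins 81 bases before the start, while near matches stay in lower case.
NFKBIA: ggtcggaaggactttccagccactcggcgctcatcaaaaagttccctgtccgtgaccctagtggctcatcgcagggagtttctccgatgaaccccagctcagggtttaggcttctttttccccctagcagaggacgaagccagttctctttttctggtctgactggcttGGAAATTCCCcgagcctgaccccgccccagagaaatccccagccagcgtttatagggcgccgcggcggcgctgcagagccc

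Short stretches of 30 bases, all on the plus strand, compare that match with those of the other genes, again with the matched letters in capitals. The TNFAIP3 stretch (chr6:137867188-137867217) holds 2 matches, which begin 67 and 55 bases before the start. The REL stretch (chr2:60881517-60881546) holds 2 overlapping matches on opposite strands. The NFKB1 stretch (chr4:102501300-102501329) holds 1. NFKB2 has 3 listed starts, and a stretch is shown from start 2 (chr10:102394461-102394490, with matches that overlap) and from start 3 (chr10:102395674-102395703).
TNFAIP3: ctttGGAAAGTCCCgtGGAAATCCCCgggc
REL: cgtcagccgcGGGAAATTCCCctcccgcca
NFKB1: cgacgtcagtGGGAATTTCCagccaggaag
NFKB2 start 2: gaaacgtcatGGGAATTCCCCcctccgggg
NFKB2 start 3: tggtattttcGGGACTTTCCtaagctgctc

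The level of each gene in the lines came first, since it sets where a peptide difference could be seen. Levels were compared between lines within a gene, not between genes. NFKB1, which encodes the precursor of a DNA-binding subunit of the canonical dimer, had the narrowest range, from 34.3 CPM in K562 to 172 in RAJI with both libraries of a line summed. KOPN8 (166 CPM) did not differ from RAJI beyond the spread between the libraries of a line, and P493-6 (131), RS4-11 (98.2), THP1 (92.0), MOLM13 (81.2) and JURKAT (71.3) lay between. NFKB1 was therefore present in every line.

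NFKB2 encodes the precursor of the non-canonical subunit. It was at 315 CPM in RAJI, with 378 in the 3R and 254 in the Y518R library. The next line, RS4-11, was at 75.1 CPM, and K562 was lowest at 22.9. RAJI thus stood 4.20-fold above the next line, while P493-6 (38.6), THP1 (37.3) and JURKAT (36.9) could not be ordered.

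REL and RELB encode subunits that activate transcription, REL being prominent in lymphocytes and RELB the usual partner of the NFKB2 product. REL was highest in RAJI (41.7 CPM) and P493-6 (18.8), followed by THP1 (13.7), and lowest in MOLM13 (3.73). RELB was highest in RAJI (118 CPM), then THP1 (39.3) and RS4-11 (35.5), whose libraries overlapped. RELB had the widest range of the subunits: it was at 3.64 CPM in JURKAT and 0.789 in K562, where each library held 21 counts.

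The feedback genes were also highest in RAJI. NFKBIA, which encodes the inhibitor IkappaB-alpha, was at 177 CPM in RAJI, but the spread of its libraries, 116 to 240, covered the 119 CPM of RS4-11. NFKBIA was lowest in K562 (20.01 CPM) and JURKAT (15.98). TNFAIP3 encodes A20, a ubiquitin-editing enzyme that shuts off signaling. It was at 275 CPM in RAJI, 128 in MOLM13, 77.2 in JURKAT and only 6.28 in P493-6. The low end of TNFAIP3 was thus the other line with a Burkitt label, 43.9-fold below RAJI.

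The cytokines were restricted to fewer lines than the subunits. TNF, the ligand that itself activates NF-kappaB, was at 119 CPM in MOLM13, 64.2 in KOPN8, 46.8 in THP1, 15.4 in RAJI and 3.34 in RS4-11. In P493-6 it was at 0.406 CPM, and K562 and JURKAT had at most 2 TNF counts in any library. IL1B, which encodes the inflammatory cytokine interleukin-1 beta, was at 49.5 CPM in RS4-11, 3.66 in MOLM13, 1.45 in THP1 and 0.720 in KOPN8. No library of the other lines held more than 4 IL1B counts.

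The chemokines CCL3 and CCL4 encode attractants for monocytes and T cells. CCL3 was at 6.37 CPM in RAJI and 2.76 in THP1, was listed at 0 in both libraries of K562 and JURKAT, and lay between 0.670 and 1.42 CPM in the other lines. CCL4 was at 1.24 CPM in RAJI and 1.23 in P493-6, followed by THP1 (0.458) and KOPN8 (0.324), and the spread between the RAJI libraries covered all of these lines. Both chemokines have near-identical copies in the genome (CCL3L1, CCL3L3, CCL4L1 and CCL4L2), which were listed at 0 in all 16 libraries. The treatment of reads shared between copies was not given in the sources used here, so CCL3 and CCL4 values are uncertain.

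**Figure D1:**
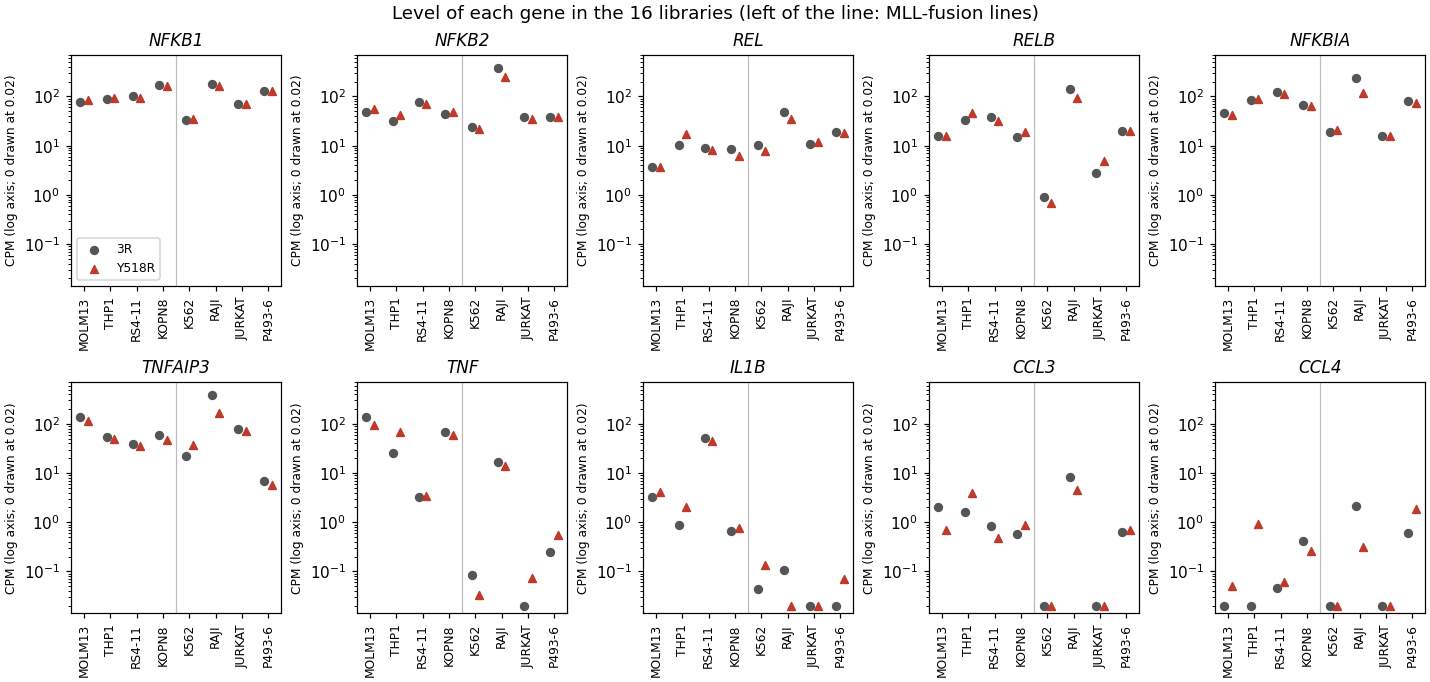
Level of each gene (CPM, log axis, with 0 drawn at 0.02) in the 8 lines, with grey circles for 3R and red triangles for Y518R and 1 library per point. With a line's libraries summed, RAJI is the highest line for all 4 subunits, both feedback genes and both chemokines, although its spread reaches KOPN8 for NFKB1, RS4-11 for NFKBIA, and P493-6, THP1 and KOPN8 for CCL4, and TNF is highest in MOLM13 and IL1B in RS4-11.

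The MLL-fusion lines were compared with the other lines to ask whether these genes differ with the fusion class. With the libraries of a line summed, edgeR's quasi-likelihood test called 0 of the 10 genes at an adjusted p under 0.05, beside 9 of 13909 genes tested (0.0647%). IL1B ranged from 0.720 to 49.5 CPM in the MLL-fusion lines and from 0 to 0.0940 in the others. It was the only one of the 10 whose lines did not overlap, a pattern that 4.24% of all genes tested showed in the higher direction and 3.23% in the lower. Its log2 change was 8.20 ± 1.98 (SE, n = 4 lines per class), with an adjusted p of 0.335 in edgeR's test. Without RS4-11 the IL1B change was 5.35. IL1B passed the filter on counts only through the MLL-fusion lines, where it is higher, so its non-overlap and change are descriptions. The adjusted p of IL1B ran from 0.256 to 0.505 over the alternatives. TNF was at 3.34 to 119 CPM in the MLL-fusion lines and 0.0295 to 15.4 in the others, which overlapped through RAJI. Its log2 change was 3.86 ± 1.97 (SE, adjusted p = 0.531, edgeR).

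The direction of several other genes in that comparison rested on RAJI. Without RAJI the log2 change of RELB went from -0.40 to 1.71, that of NFKB2 from -0.98 to 0.66, that of TNFAIP3 from -0.55 to 0.78 and that of CCL3 from -0.34 to 2.62. The change of NFKBIA went from 0.11 to 1.04, and that of TNF from 3.86 to 8.44. Libraries of K562, JURKAT and P493-6 held at most 16 TNF and 20 CCL3 counts, so both values without RAJI are descriptions. None of the 10 was called without RAJI either. The median log2 change of the 10 was -0.37, against -0.01 over all genes tested.

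The 2 lines with a Burkitt label were compared with the 6 other lines, and again 0 of the 10 genes were called, beside 6 of 15945 genes (0.0376%). REL was at 41.7 and 18.8 CPM in the Burkitt lines and at 3.73 to 13.7 in the others, without overlap. CCL4 also did not overlap when a line's libraries were summed, at 1.24 and 1.23 CPM against 0 to 0.458. Its single libraries did overlap, with 0.313 and 2.18 CPM in RAJI and 0.612 and 1.83 in P493-6 against up to 0.930 in THP1. Non-overlap in the higher direction held for 5.68% of all genes tested and in the lower direction for 5.04%. The log2 change of REL was 1.76 ± 0.57 (SE), with an unadjusted p of 0.0147 and an adjusted p of 0.622 in edgeR's test. DESeq2 gave an adjusted p of 0.0420 for REL, and the range over all alternatives was 0.0420 to 0.828. DESeq2 called 969 genes in this comparison, against 6 with edgeR. NFKB2 had a log2 change of 1.98 ± 0.65 (SE, adjusted p = 0.622, edgeR), which was -0.22 without RAJI, so the higher mean was that of RAJI alone. The values of TNFAIP3 were 275 CPM in RAJI and 6.28 in P493-6, and its change went from 1.18 to -3.31 without RAJI. The change of RELB went from 1.89 to 0.11 without RAJI, that of NFKBIA from 1.13 to 0.43 and that of REL from 1.76 to 1.07. That of CCL3 went from 1.94 to -0.45 and that of TNF from -2.27 to -6.55. Both then rest on P493-6, with 18 and 20 CCL3 counts and 7 and 16 TNF counts.

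Some pairs of these genes followed each other across lines. RELB and NFKBIA had a Pearson r of 0.93 between log2 CPM over 8 lines (Spearman 0.95), and 0.97 without the lines farthest from the RELB median. RELB and CCL3 reached 0.93, and 0.89 without those lines. For NFKB1 and RELB, r was 0.84 but 0.36 without the 2 farthest lines. TNFAIP3 and NFKBIA had an r of 0.11. The points of each pair share their libraries and scaling, and no test was made of these values.

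The genes most like each member, by Pearson r of log2 CPM over the 8 lines among 13042 genes, were also listed. For NFKB1 these were LSP1 (0.97), RFTN1 (0.97) and HLA-DMA (0.96), and for REL they were PIK3C2A (0.97), CNNM4 (0.97) and TAP2 (0.95). For NFKBIA they were CDK14 (0.96), PIK3CD (0.96) and SLC12A8 (0.96), and for CCL4 they were PNOC (0.98), DTX3 (0.96) and OSBPL10 (0.94). Those of NFKB2, led by SGPP2 (0.95) and CCDC88A (0.95), rested on RAJI and K562, since the r fell to 0.65 and 0.29 without those lines. With this many genes and 8 points a high r is no more than a description.

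The effect of the peptide was then asked of all lines together, with the line as the block. Of the 10 genes, 9 passed the filter on low counts and CCL4 did not. No gene was called in edgeR's quasi-likelihood test, 0 of these 9 and 0 of all 13043 tested (0%), with 394 genes at an unadjusted p under 0.05. The 9 genes had a median log2 change of -0.03, and 3 were above 0, beside a median of -0.0037 and 48.3% above 0 for all genes tested. Without RAJI 5 of the 9 were above 0, and without THP1 0 of the 8 still tested were.

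NFKB1 was the steadiest member. It ranged from 33.6 to 179 CPM with 3R (median 96.7) and from 34.8 to 165 with Y518R (median 92.8). The log2 ratio of Y518R over 3R lay between -0.15 in RS4-11 and 0.15 in MOLM13, and the fitted change was -0.01 ± 0.05 (SE, adjusted p = 0.999, edgeR). NFKB2 ranged from 23.8 to 378 CPM with 3R (median 41.4) and from 22.2 to 254 with Y518R (median 46.0), with ratios from -0.57 in RAJI to 0.43 in THP1. The change of NFKB2 was -0.03 ± 0.09 (SE). For both genes the unpaired ranges overlapped almost entirely, and the same holds for each gene below. These ranges span all lines, so their overlap does not bear on the change within a line.

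REL ranged from 3.74 to 48.0 CPM with 3R (median 10.2) and from 3.73 to 35.4 with Y518R (median 9.97). Its ratio was below 0 in 6 of 8 lines and 0.75 in THP1. RELB ranged from 0.908 to 141 CPM with 3R (median 18.1) and from 0.698 to 95.1 with Y518R (median 19.7), and its largest ratio, 0.78, was in JURKAT at 2.82 and 4.90 CPM. The fitted changes were -0.08 ± 0.13 for REL and 0.06 ± 0.13 for RELB (SE, adjusted p = 0.999 each, edgeR). That of REL was -0.20 without THP1 and -0.02 without RAJI, and that of RELB was 0.18 without RAJI and -0.01 without JURKAT.

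NFKBIA and TNFAIP3 had the lowest unadjusted p of the 9 genes. NFKBIA ranged from 16.02 to 240 CPM with 3R (median 74.8) and from 15.9 to 116 with Y518R (median 68.5). Its ratio was below 0 in 6 of 8 lines, with a change of -0.19 ± 0.10 (SE, unadjusted p = 0.0854, adjusted p = 0.999, edgeR). TNFAIP3 ranged from 6.98 to 386 CPM with 3R (median 56.3) and from 5.60 to 167 with Y518R (median 48.7). Its ratio was below 0 in 7 of 8 lines, K562 being the exception, and its change was -0.23 ± 0.14 (SE, unadjusted p = 0.118, adjusted p = 0.999, edgeR). Without RAJI these changes were -0.06 for NFKBIA and -0.07 for TNFAIP3, and without K562 that of TNFAIP3 was -0.35.

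TNF ranged from 0 to 139 CPM with 3R (median 10.1) and from 0.0333 to 96.6 with Y518R (median 8.64). Its change of 0.12 ± 0.22 (SE) was -0.21 without THP1. IL1B ranged from 0 to 52.2 CPM with 3R (median 0.379) and from 0 to 45.9 with Y518R (median 0.453), with a change of 0.34 ± 0.27 (SE). CCL3 ranged from 0 to 8.23 CPM with 3R (median 0.741) and from 0 to 4.54 with Y518R (median 0.694). Its change of -0.19 ± 0.37 (SE) was -0.54 without THP1 and 0.07 without MOLM13. CCL4 ranged from 0 to 2.18 CPM with 3R and from 0 to 1.83 with Y518R, and gave a change of 0.63 ± 0.87 (SE) with no filter.

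**Figure D2:**
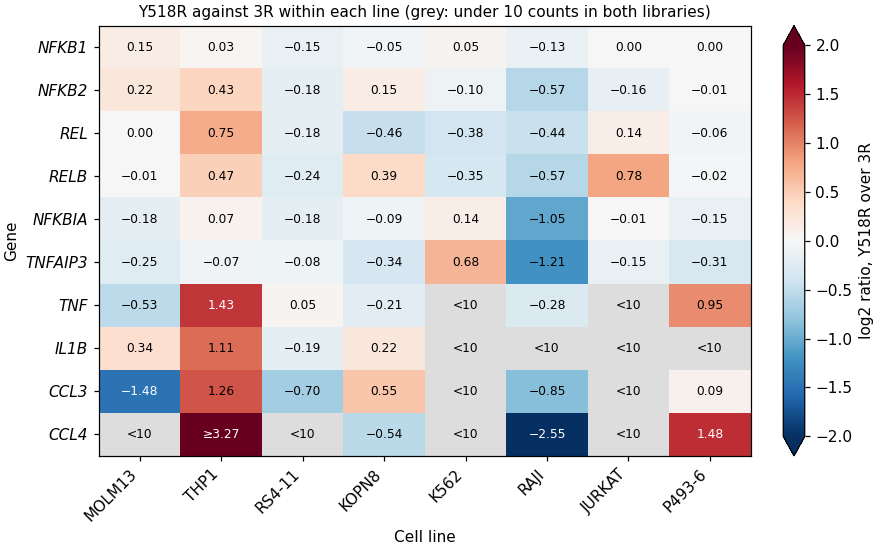
Log2 ratio of Y518R over 3R for each gene (rows) in each line (columns), from CPM after adding a prior count of 2, red for higher with Y518R and blue for lower, with grey cells where both libraries held under 10 counts and a lower bound where the 3R library held 0. The RAJI column is below 0 for every gene shown, and the THP1 column is above 0 for every gene but TNFAIP3.

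The classes were then taken apart. In the 4 MLL-fusion lines 0 of the 9 genes were called, as were 0 of 13043 genes (0%), with 762 at an unadjusted p under 0.05, and 5 of the 9 were above 0, or 2 of the 8 that could be tested without THP1. In the 4 other lines 0 of the 9 and 0 of all genes were called (0%), with 202 at an unadjusted p under 0.05, and 1 of the 9, IL1B, was above 0. IL1B passed the filter through the MLL-fusion lines alone and held at most 4 counts in any library of the other lines. Its direction there, and its difference between the classes, cannot be read at these counts. Without RAJI, 6 of the 9 were above 0 in the other lines, so the low count rested on the RAJI pair. Of these 6, TNF, IL1B and CCL3 held at most 20 counts in any library of K562, JURKAT and P493-6, and NFKB1 was at 0.016. Of the difference between the classes 0 of the 9 and 0 of all genes were called (0%), with 494 at an unadjusted p under 0.05. The median difference of the 9 genes was 0.20, against 0.01 over all genes, and 8 of the 9 were above 0. This too rested on RAJI: without it 2 of the 9, NFKB2 and REL, were above 0 and the median was -0.08. Without THP1, 4 of the 8 still tested were above 0. All 3 comparisons draw on the same libraries.

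NFKB2 was the 1 gene of the 9 at an unadjusted p under 0.05 for that difference. Its ratios were 0.22 in MOLM13, 0.43 in THP1, 0.15 in KOPN8 and -0.18 in RS4-11, and in the other class -0.10 in K562, -0.57 in RAJI, -0.16 in JURKAT and -0.01 in P493-6. RS4-11 fell among the other lines, so the classes overlapped. The difference was 0.37 ± 0.15 (SE, unadjusted p = 0.0303, adjusted p = 0.999, edgeR), with adjusted p from 0.902 to 1 over the alternatives, and it was 0.24 without RAJI. In the other lines alone NFKB2 was at -0.22 ± 0.11 and NFKBIA at -0.29 ± 0.15 (SE), and these were -0.09 and -0.02 without RAJI. TNFAIP3 was at -0.19 ± 0.19 in the MLL-fusion lines and -0.27 ± 0.20 in the others (SE), and the latter was 0.10 without RAJI.

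**Figure D3:**
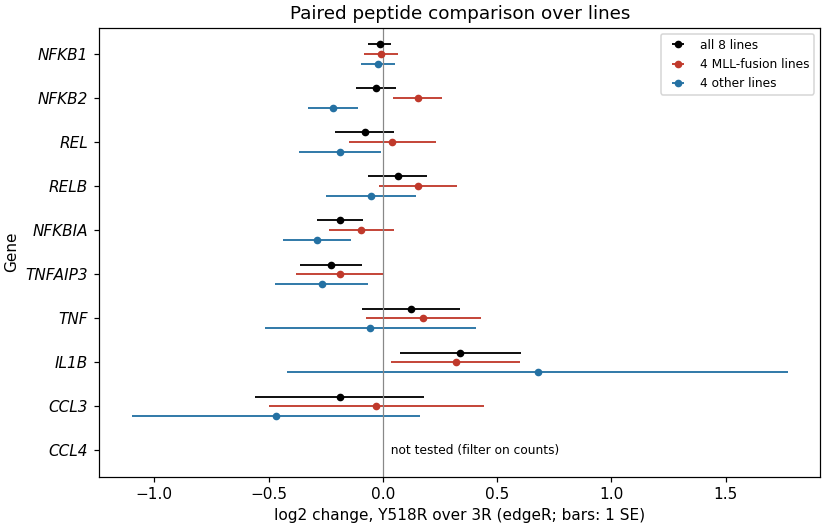
Fitted log2 change of Y518R over 3R with 1 SE (edgeR) for each tested gene, in all 8 lines (black), the 4 MLL-fusion lines (red) and the 4 other lines (blue). No gene passed the test, and the bars of the low-count genes IL1B and CCL3 are the widest in the other lines.

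Within single lines there was 1 library per peptide and no test, so folds are given with exact 95% intervals that cover counting error only. A gene counts as measured if either library reaches 1 CPM, so it can enter through its higher library alone. The place of such a member in a count is a description. Lines differed in direction. In THP1 8 of the 9 genes at 1 CPM or more in either library were higher with Y518R, with a median log2 ratio of 0.47 against 0.0033 over all genes measured there. In RAJI 0 of 9 were higher, with a median of -0.57 against -0.02. In the other lines the median of the measured members lay between -0.18 and 0.05. In bulk RNA, fewer expressing cells and less RNA per cell cannot be told apart.

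In THP1, a monocytic line, the cytokines and chemokines differed most. TNF had 792 counts (25.5 CPM) with 3R and 2068 (68.7 CPM) with Y518R, a 2.70-fold difference (2.48 to 2.93). IL1B went from 28 to 61 counts, 2.25-fold (1.42 to 3.66), and CCL3 from 50 to 119 counts, 2.46-fold (1.75 to 3.49). These were 3 of the 9 measured members at 2-fold or more higher and 0 lower, against 4.29% higher and 2.25% lower among all 13138 genes measured in THP1. IL1B reached 1 CPM only with Y518R, where it was higher (0.901 CPM with 3R and 2.03 with Y518R), so its place here is a description. CCL4, under the minimum of 1 CPM, had 0 counts with 3R and 28 with Y518R, at least 9.64-fold higher on a floor of 3 counts per library.

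The subunits differed less in THP1. REL measured 10.2 CPM with 3R and 17.2 with Y518R, 1.69-fold higher (1.46 to 1.94). RELB was 1.39-fold higher (1.28 to 1.51) and NFKB2 1.35-fold (1.24 to 1.47). The intervals of NFKB1 (0.971 to 1.08), NFKBIA (0.997 to 1.11) and TNFAIP3 (0.885 to 1.02) included 1. In THP1 the ligands, REL, RELB and NFKB2 were thus higher while the feedback genes were within counting error. Of all lines, the THP1 pair differed most beyond sampling noise (chi-square over its degrees of freedom 65.5), which counting intervals do not cover. The summed myeloid markers were at 1034 and 1106 CPM in these libraries. Their part in these values was not tested.

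In RAJI the values lay the other way, and the feedback genes differed most among the well-measured members. TNFAIP3 had 7266 counts (386 CPM) with 3R and 3197 (167 CPM) with Y518R, 2.31-fold lower, and NFKBIA 4511 counts (240 CPM) and 2226 (116 CPM), 2.06-fold lower. CCL4 had 41 and 6 counts, 6.96-fold lower. These made 3 of the 9 measured members at 2-fold or more lower and 0 higher, against 4.49% lower and 0.777% higher among all 11458 genes measured. CCL4 reached 1 CPM only with 3R, where it was higher (2.18 CPM with 3R and 0.313 with Y518R), so its place here is a description. CCL3 was 1.81-fold lower, at 155 and 87 counts.

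The subunits NFKB2 (378 and 254 CPM), RELB (141 and 95.1) and REL (48.0 and 35.4) were 1.49-fold, 1.48-fold and 1.36-fold lower in RAJI. NFKB1 was 1.09-fold lower (179 and 165 CPM) and TNF 1.22-fold lower (16.9 and 13.9 CPM). All of these intervals lay below 1. The 3R library of RAJI is the one with 44.7% of reads in no gene, every RAJI value here rests on it, and its part in them was not tested. B cell markers summed to 2923 CPM in it and 2429 with Y518R.

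**Figure D4:**
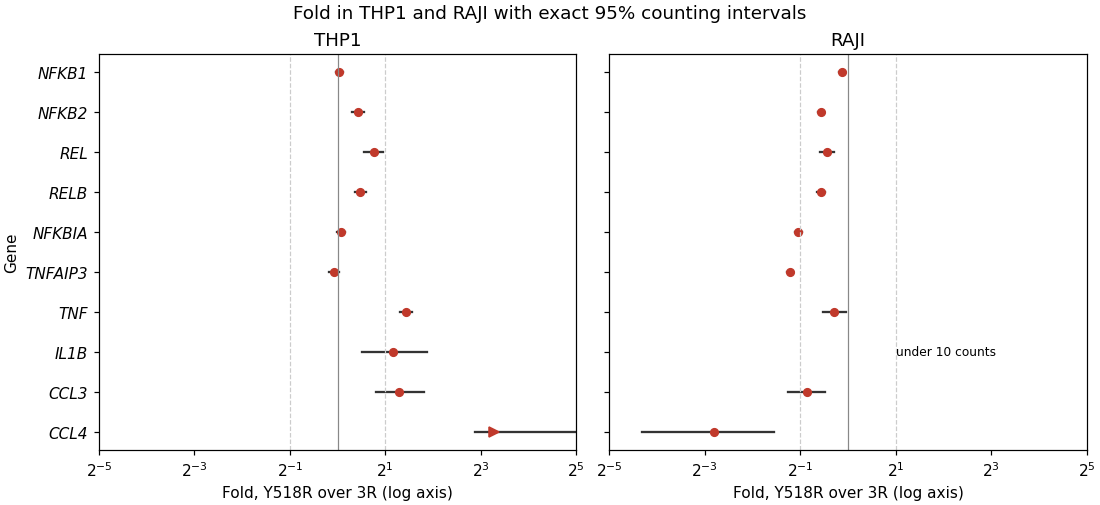
Fold of Y518R over 3R (log axis) in THP1 and RAJI for each gene, with exact 95% counting intervals and dashed lines at 2-fold. The arrowhead marks the lower bound for CCL4 in THP1, and in RAJI no interval shown reaches above 1.

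In MOLM13, the other MLL-AF9 line, TNF and CCL3 were lower instead. TNF had 3169 counts (139 CPM) with 3R and 1941 (96.6 CPM) with Y518R, 1.44-fold lower. CCL3 had 47 and 14 counts, 2.96-fold lower, and was the 1 member of 9 at 2-fold, against 1.53% higher and 2.41% lower among all genes. CCL3 reached 1 CPM there only with 3R, where it was higher (2.07 CPM with 3R and 0.697 with Y518R), so this count is a description. The lines that share this fusion thus had TNF and CCL3 on opposite sides, a difference that was not tested. IL1B in MOLM13 was at 74 and 83 counts, within counting error.

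The other lines had few members at 2-fold. In RS4-11, 0 of 8 members reached it, against 0.511% of genes higher and 0.783% lower, and IL1B was at 52.2 and 45.9 CPM. In KOPN8, 0 of 7 did (0.66% of genes higher and 1.17% lower), and TNF was at 69.3 and 60.1 CPM. In JURKAT, 0 of 6 did (0.421% higher and 0.834% lower), although RELB went from 115 to 132 counts at unequal depth, 1.74-fold higher (1.34 to 2.25).

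In K562, 0 of 5 members reached 2-fold, against 1.07% of genes higher and 0.831% lower. TNFAIP3 in K562 measured 22.7 CPM with 3R and 36.4 with Y518R, 1.60-fold higher (1.44 to 1.78), opposite to RAJI. In P493-6, 1 of 7 members was higher, CCL4 with 17 and 53 counts, 3.00-fold (1.71 to 5.52), against 0.893% of genes higher and 0.752% lower. CCL4 reached 1 CPM there only with Y518R, where it was higher (0.612 CPM with 3R and 1.83 with Y518R), so this count is a description. TNFAIP3 in P493-6 was at 6.98 and 5.60 CPM. CCL4 was therefore higher with Y518R in THP1 and P493-6 and lower in RAJI.

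The wider pathway was read from 6 lists of subunits, inhibitors, kinases and adaptors, receptors, cytokines and chemokines, and other target genes, which hold 103 genes beside the 10. None was called in any comparison with edgeR: 0 of 81 tested in each peptide comparison, 0 of 84 between the MLL-fusion and other lines and 0 of 94 for the Burkitt lines. Over all 8 lines, 30 of the 81 were above 0, and 48 of 81 without RAJI. In the other lines 24 of 81 were above 0 (29.6%), against 48.1% of all genes tested, but without RAJI 44 were (54.3%). In the MLL-fusion lines 46 were above 0 (56.8%, against 49.9%), and without THP1 36 of 78 (46.2%). Each of these shares thus rested on 1 line. RELA, which encodes the main activating subunit, had a change of 0.03 ± 0.05 (SE) over all lines, and of 0.01 without THP1.

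The genes with the lowest p in their list for the class difference included DUSP2, CCL5 and CD40 (adjusted p = 0.999 each, edgeR). DUSP2, a phosphatase gene, was at 0.78 ± 0.24 and CCL5, a chemokine gene, at 0.85 ± 0.29 (SE). CD40, a gene of the TNF receptor family, was at 0.78 ± 0.26 (SE). Without RAJI these differences were 0.56 for DUSP2, 0.40 for CCL5 and 0.48 for CD40. CD40 was at 0.35 ± 0.17 in the MLL-fusion lines and -0.42 ± 0.20 in the others (SE), but at 0.12 without THP1 and -0.14 without RAJI. MYD88, the adaptor of Toll-like and IL-1 receptors, was at 0.29 ± 0.11 in the MLL-fusion lines (SE, adjusted p = 0.840, edgeR), and at 0.11 without THP1. PLAU, a protease gene, was at -0.70 ± 0.22 and CCL5 at -0.77 ± 0.26 in the other lines (SE, adjusted p = 0.9996 each, edgeR), and these were -0.38 and -0.32 without RAJI, while CCL5 was at -1.19 without P493-6.

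In THP1, 10 of the 82 measured genes of these lists were at least 2-fold higher (12.2%) and 1 was lower, against the 4.29% and 2.25% of all genes given above. At a CPM of 10 or more the share was lower: members included, 3 of 73 were 2-fold higher in THP1, against 2.15% of all genes, and 1 of 7 members was (TNF). With the members included, 6 of 14 measured cytokines and chemokines were 2-fold higher: TNF, IL1B, CCL3, LTA, CXCL1 and CCL2. Of the receptors 3 of 13 were, namely TLR1, CD14 and LY96. CD14, the monocyte co-receptor for lipopolysaccharide, measured 4.41 CPM with 3R and 17.8 with Y518R. ICAM1, an adhesion molecule gene, was at 4.05 and 14.7. Both reached a CPM of 10 only with Y518R, where they were higher. The kinase and adaptor genes had 1 higher and 1 lower of 27, with a median log2 ratio of 0.07.

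In RAJI, 11 of the 80 measured genes were at least 2-fold lower (13.8%) and 0 higher, against 4.49% and 0.777%. At a CPM of 10 or more, members included, 9 of 72 were lower in RAJI, against 107 of all 8911 genes, and 2 of 7 members were (NFKBIA and TNFAIP3). Of 23 measured target genes 7 were lower, and of 27 kinases and adaptors 0 were. CCR7, the lymph node homing receptor, measured 336 CPM with 3R and 117 with Y518R. EBI3, a cytokine subunit gene, was at 237 and 112 CPM, GADD45B, a stress response gene, at 92.7 and 41.7, IRF4, a lymphocyte transcription factor gene, at 57.6 and 26.7, and IL1R2, a decoy receptor gene, at 24.7 and 10.1. As for the members, these values rest on the RAJI 3R library. In RS4-11, KOPN8, K562, MOLM13, JURKAT and P493-6 at most 3 of these genes reached 2-fold in either direction. JURKAT had 3 of 60 lower (5%) and 0 higher, against 0.834% and 0.421% of all genes. K562 had 2 of 63 higher (3.17%) and 0 lower, against 1.07% and 0.831%. MOLM13 had 2 of 80 lower (2.5%, against 2.41%) and 0 higher. RS4-11 had 1 of 73 in each direction, and KOPN8 (75 measured) and P493-6 (74) had 0. At a CPM of 10 or more, members included, 0 reached 2-fold in JURKAT and K562.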

How the data were processed

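The authors deposited raw counts, whole numbers of reads per gene symbol for 23230 symbols in each of 16 libraries. Without giving roles, the submitters' processing notes list HTSeq 0.6.1, TopHat2 2.1.1, CASAVA 1.8.4, DESeq and DESeq2 3.0, and the builds GRCh38 and hg19. The build behind the counts and the strand setting were not given in the sources used here, so reads from overlapping or antisense genes cannot be told apart. RefSeq promoter coordinates are on GRCh38.p14. In GENCODE, exons of TNFAIP3 and CCL3 overlap antisense genes, and those of REL a gene on the same strand. The 5 entries naming no gene were left out of library sizes and tests.

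Counts were tested with edgeR 4.0.16 (quasi-likelihood test, TMM, filterByExpr at a minimum count of 10, R 4.3.3) and Benjamini-Hochberg adjustment over all genes tested, with calls at an adjusted p under 0.05. Peptide fits used all 16 libraries with the cell line as the block. Pairing comes from the line in the labels. The deviations of a line's libraries from their peptide's mean had a correlation of 0.945 to 0.972. The libraries of a line differed beyond sampling noise (chi-square over its degrees of freedom 8.66 in P493-6 to 65.5 in THP1). For line comparisons both libraries of a line were summed. SEs were taken as the size of the log2 change over the root of the F statistic. Single-line log2 ratios used a prior count of 2, and 2-fold counts covered genes reaching a CPM of 1 in at least 1 library. A count of 0 allows up to 3 counts. Reads carry no molecular identifiers, so intervals and this floor cover counting error only. The fits were run on simulated counts in which every line had the same peptide change. This does not measure how they perform where lines differ, as here.

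Alternatives were RLE size factors, no filter, DESeq2 1.42.0, limma-voom (limma 3.58.1), no replicate block, 1 peptide's libraries alone, another prior count, another minimum CPM, no TMM, and leaving out each line. The members and lists were chosen with earlier results of these data known. Named were the 10 members, up to 2 genes per list with the lowest p in a peptide comparison, up to 4 called genes per list between lines (there were 0), in a single line up to 5 list genes at 2-fold and a CPM of 10 or more, the 3 genes most like a member, and the copies of CCL3 and CCL4. LTA, CXCL1, CCL2, TLR1 and LY96 in THP1 fall outside this rule and were named after their values were seen.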

Additional observations from a re-analysis of the deposited data

Results flagged for a closer look

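With 8 lines, the highest or lowest value of a gene was compared with its nearest neighbour in 30 groups, the level with 3R, the level with Y518R and the log2 ratio of each gene, and 4 stood apart by Dixon's criterion at the 95% level. Chance flags about 1 in 20 groups. These groups share lines and libraries, so the number flagged cannot be weighed against that rate. NFKB2 in RAJI was at 8.56 log2 CPM with 3R, the next line being at 6.31, and at 7.99 with Y518R, the next being at 6.13. The log2 ratio of NFKBIA in RAJI was -1.05, and the next lowest line was at -0.18. TNFAIP3 in P493-6 with Y518R was at 2.50 log2 CPM, and the next lowest line was at 5.18. The RAJI ratio rests on the 3R library with 44.7% of reads in no gene.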

How the results depend on the processing

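Of the log2 changes fitted for the 10 genes, none of the peptide changes passed the adjusted threshold under any alternative run, and between lines REL in the Burkitt comparison did so with DESeq2 alone (adjusted p = 0.0420). That fit called 969 genes, against 6 with edgeR. RLE size factors and leaving out the filter turned no member's direction. Pairing by line was the main design. With no replicate block, 0 genes were called in each peptide comparison, and 6 member changes turned: over all lines RELB to -0.19, TNF to -0.065 and IL1B to -0.11, and in the MLL-fusion lines TNF to -0.053, IL1B to -0.11 and CCL3 to 0.24. With DESeq2, TNF turned to 0.36 in the other lines and -0.19 for the class difference. With limma-voom, RELB turned to -0.047 and IL1B to -0.047 over all lines, IL1B to -0.069 and CCL3 to 0.19 in the MLL-fusion lines. Between the classes of lines limma-voom gave RELB 1.78, TNFAIP3 0.49, CCL3 3.30 and CCL4 0.49, and for the Burkitt lines TNFAIP3 -0.77. From the 3R libraries alone NFKBIA was at -0.13 between the classes, and from the Y518R libraries alone CCL3 was at 0.21. The cause was not tested.

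Leaving out a line turned more directions, with these ranges. Over all 8 lines they were NFKB1 -0.032 to 0.0067, NFKB2 -0.099 to 0.052, RELB -0.012 to 0.18, TNF -0.21 to 0.32 and CCL3 -0.54 to 0.072. In the MLL-fusion lines they were NFKB1 -0.053 to 0.042, REL -0.24 to 0.22, TNF -0.27 to 0.45 and CCL3 -0.61 to 0.46. In the other lines they were NFKB1 -0.035 to 0.016, RELB -0.30 to 0.23, TNFAIP3 -0.58 to 0.097, TNF -0.25 to 0.995, CCL3 -0.84 to 0.088 and IL1B -0.030 to 1.96. For the class difference they were NFKB1 -0.037 to 0.061, REL -0.052 to 0.40, RELB -0.075 to 0.46, NFKBIA -0.078 to 0.32, TNFAIP3 -0.28 to 0.40, TNF -0.82 to 0.47, CCL3 -0.15 to 0.92 and IL1B -1.66 to 0.34. Between MLL-fusion and other lines they were NFKB1 -0.19 to 0.46, NFKB2 -1.32 to 0.66, RELB -0.81 to 1.71, NFKBIA -0.23 to 1.04, TNFAIP3 -1.04 to 0.78 and CCL3 -0.90 to 2.62. For the Burkitt lines they were NFKB2 -0.22 to 2.82, TNFAIP3 -3.31 to 2.15 and CCL3 -0.45 to 2.81.

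Counts of called genes over the whole table moved too. Without the filter they were 3 over all lines, 52 in the MLL-fusion lines, 1 in the other lines and 9 for the difference, and limma-voom gave 1, 20, 2 and 2. DESeq2 gave 1 in the MLL-fusion lines, 2 for the difference, 604 between the classes and 969 for the Burkitt lines. Limma-voom gave 1 between the classes. The Y518R libraries alone gave 4 between the classes and 3 for the Burkitt lines. Leaving out a line gave 0 to 3 calls in the MLL-fusion lines (3 without MOLM13, 1 without RS4-11), 0 to 1 for the difference (1 without MOLM13 or THP1), 3 to 10 between the classes (4 without MOLM13, 3 without JURKAT) and 0 to 12 for the Burkitt lines (0 without RS4-11 or JURKAT, 2 without MOLM13 or RAJI, 12 without P493-6). At a minimum CPM of 10, genes at 2-fold numbered 64 in MOLM13, 290 in THP1, 0 in RS4-11, 3 in KOPN8, 2 in K562, 113 in RAJI, 0 in JURKAT and 0 in P493-6. The share was lower as well as the number, in MOLM13 from 1.53% to 0.434% for genes higher, and the cause was not tested. Of the 80 single-line ratios, 2 moved without TMM, in MOLM13 (TNFAIP3 to -0.34 and TNF to -0.62), and 0 with another prior count. Leaving out a Burkitt line leaves 1, which is assumed to vary like the other lines. TNF, IL1B, CCL3 and CCL4 held few counts in several lines, where a difference was not detectable at this depth.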
